A study of Mus musculus with 17 samples.

Results

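RNA-seq libraries of whole retina labelled Rabgef1 KO were compared with libraries labelled WT at postnatal day 6 (P6). The 6 P6 libraries are 3 labelled KO (replicates 1, 3 and 5) and 3 labelled WT (replicates 2, 4 and 6), out of 17 libraries that also cover P10 and P14. All genes with enough counts entered the comparison, which left 16372 of the 32177 genes in the table. Mice labelled KO were Rabgef1-/- offspring of heterozygous parents, in a colony refreshed with BALB/cJ animals. The study drew its controls from wildtype and heterozygous littermates, and which of these a WT library came from is not given. Males and females were used. Each library is 1 retinal RNA sample enriched for polyadenylated RNA and made with a strand-keeping kit.

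RabGEF1 is a guanine nucleotide exchange factor that switches on the small GTPase Rab5, in a tight complex with Rabaptin-5. Active Rab5 recruits EEA1 and other tethers, so that incoming vesicles fuse into early endosomes, and it also takes part in closing autophagosomes. At P6 the mouse retina is still being built. The last progenitors divide and give rise to rods, bipolar cells and Müller glia, while cones, horizontal, amacrine and ganglion cells were born earlier. Rods have hardly any outer segments at this age, so the photoreceptor values below describe immature cells.

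Values are CPM, estimated counts scaled to the size of each library, and library values are always given for WT 2, 4 and 6 and then KO 1, 3 and 5. Differences are log2 of KO over WT. The standard error (SE) of a gene is its absolute difference over the square root of its F statistic in edgeR. In bulk retina, fewer cells of a type and less RNA per cell cannot be told apart. The 6 libraries held 15488527 to 19389809 counts each. The photoreceptor gene Crx was abundant in all 6, at 1272 to 1499.6 CPM. The library KO 1 stood apart from the other 5. Its correlation with them over 14270 genes was 0.967 to 0.973, and the other pairs had 0.973 to 0.986. On the first principal component, which held 31.1% of the variance, KO 1 scored 44.5 and the others -17.0 to 0.222. Y-linked transcripts such as Ddx3y stood at 78.6, 0.233 and 0.21 CPM in the WT libraries and at 83.2, 80 and 0.0592 CPM in the KO libraries. Thus 1 WT and 2 KO libraries were of the male type, and sex was not balanced between the labels. The 22 lens genes, the sign of another ocular tissue in the dissection, summed to 27.5 to 32.9 CPM in WT and 26.7 to 51 CPM in KO, with Cryaa at 0.0525 to 2.56 CPM. The 19 pigment epithelium genes summed to 1079.9, 702 and 798 CPM in WT and 964, 692 and 705 CPM in KO. Relative to the WT mean they stood at 0.46 in WT 2 on the log2 scale, and their median difference of -0.27 was 0.00 without WT 2. The mean of 200 genes that increase from P10 to P14 in WT, less the mean of 200 that decrease, was -2.15, -2.08 and -1.995 in the WT libraries and -2.09, -2.06 and -2.35 in the KO libraries on the log2 scale. KO 5 had the lowest value. The genes were chosen between P10 and P14, so these values do not show whether the P6 libraries match in stage.

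The targeted gene was examined first. Rabgef1 (ENSMUSG00000025340, GRCm38 chr5:130171798-130214342, plus strand) was at 40.4, 42.5 and 42.5 CPM in WT and at 44.4, 45.5 and 44.5 CPM in KO. All 3 KO libraries were slightly above all 3 WT libraries, and the difference of 0.10 (SE 0.12, adjusted p = 0.919 by edgeR) did not pass the test. The gene total is therefore not lower in the libraries labelled KO at P6 and does not check their labels. KO and WT below are the labels. At P14 the difference of the same gene was -0.53, and the difference between the P6 and the P14 values was 0.63 (SE 0.17, unadjusted p = 0.00211, adjusted p = 1.00 over all genes).

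The counts were also estimated for single transcripts, and 5 of the 9 listed for Rabgef1 averaged at least 0.5 CPM at P6. Most of the signal was in the coding transcript Rabgef1-203 (chr5:130171798-130214342), at 31.8, 27.9 and 30.7 CPM in WT and 33.5, 36.7 and 32.8 CPM in KO, with no overlap (exact permutation p = 0.1, two-sided). The coding transcript Rabgef1-201, which starts further downstream, was at 1.99, 6.20 and 6.05 CPM in WT and 3.36, 0.831 and 2.88 CPM in KO, and its groups overlapped (exact permutation p = 0.3, two-sided). The retained-intron transcript Rabgef1-207 (chr5:130211381-130212975) was at 2.61, 1.71 and 2.42 CPM in WT and 3.70, 3.48 and 3.50 CPM in KO, with no overlap. Its exact permutation p was 0.1, which is the smallest that 3 libraries against 3 allow. Rabgef1-204, also with a retained intron, stood at 0.977 to 1.52 CPM in WT and at 1.63 to 1.94 CPM in KO, also with no overlap and with the same exact permutation p of 0.1. The assay by which the mice were genotyped gives 1 more landmark. Its wildtype primer matched the minus strand at chr5:130191061-130191084 (GRCm38), 18 bases into the intron that follows the third exon of Rabgef1-203. It is shown because it marks a part of the gene that the wildtype allele has.
Wildtype genotyping primer: tgcagcttactcaggcatggaaga
Which exons the mutant allele lacks is not given in the sources used here, so the transcript values cannot be read against the deleted part.

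**Figure D1:**
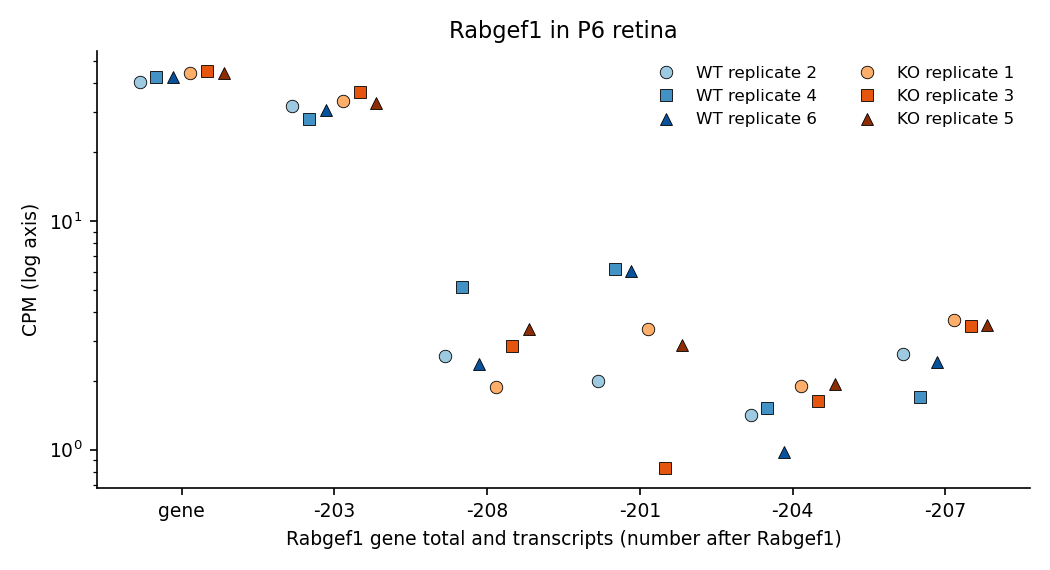
Rabgef1 at P6, in CPM on a log axis, for the gene total and the 5 transcripts above 0.5 CPM on average. Each point is 1 library, blue for WT and orange to brown for KO. The gene total lies between 40.4 and 45.5 CPM in all 6 libraries, and the points of transcripts 203, 204 and 207 do not overlap between the labels.

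No gene passed an adjusted p of 0.05 between KO and WT at P6 by edgeR (0 of 16372, or 0% in each direction). At an unadjusted p under 0.05 there were 1157 genes (7.07%). DESeq2 called 51 genes at the same adjusted threshold and limma-voom called 0. The study's methods give a p-value cutoff of 0.1 and name no adjustment. At an unadjusted p under 0.1 by edgeR there were 2122 genes (13%), with 1050 higher in KO (6.41%) and 1072 lower (6.55%). These shares are the background for every gene list below when all libraries are included. In 939 genes (5.74%) all KO libraries exceeded all WT libraries, and in 1034 (6.32%) all were below. The median difference over all tested genes was -0.00. The count at p under 0.1 was 1519 without KO 1, and 2582 without KO 5. Of all genes tested, these were 9.30% and 15.8%. Without KO 3 the share was 14.3%, and it was 10.3%, 11.4% and 13.3% without WT 2, 4 and 6. Genes without any difference would meet this cutoff at a share of about 0.1. Without KO 1 or without WT 2, the share was thus near what the cutoff alone gives. Counts of list members with 1 library left out are to be read beside these shares.

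The gene with the smallest p among those higher in KO was Lmo2 (ENSMUSG00000032698, chr2:103957986-103981878, plus strand), a LIM-only adaptor that bridges transcription factors and is best known from blood and endothelial development. It stood at 11.7, 16.9 and 12.5 CPM in WT and 35.5, 29.5 and 22.2 CPM in KO. Every KO library was above every WT library, and the difference was 1.08 (SE 0.16, adjusted p = 0.0657). It passed the adjusted threshold without KO 5 (1.25, adjusted p = 0.00957), without WT 4 (1.27, adjusted p = 0.0393), with no filter on low counts (adjusted p = 0.0460) and by DESeq2. Over all alternatives its adjusted p ran from 1.25e-06 to 0.364. Cpt1a, the enzyme that commits long-chain fatty acids to import into mitochondria, came next. It was at 132, 143 and 133 CPM in WT and 264, 222 and 197 CPM in KO, a difference of 0.75 (SE 0.11, adjusted p = 0.0657). It also passed without KO 5 (0.85, adjusted p = 0.0145), and over all alternatives its adjusted p ran from 9.71e-07 to 0.341. Neither gene has a value of comparable size at the later ages. Lmo2 differed by 0.18 at P10 and 0.14 at P14, and Cpt1a by 0.13 and 0.02.

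The other genes higher in KO by the naming rule were mostly low in level. Col16a1, a fibril-associated collagen, stood at 3.86, 3.14 and 3.46 CPM in WT and 17.7, 11.3 and 5.63 CPM in KO. Kcnab1, a subunit of voltage-gated potassium channels, was at 32.1 to 33.7 CPM in WT and 63.2, 45.0 and 42.5 CPM in KO. Csf3r, the receptor of granulocyte colony-stimulating factor, was at 2.04 to 3.00 CPM in WT and 4.15 to 5.06 CPM in KO. In each of these the libraries fall in the order KO 1, KO 3, KO 5 and then WT. The same holds for Slc25a34, a mitochondrial carrier, at 0.116 to 0.2 CPM in WT and 1.48, 1.12 and 0.592 CPM in KO. Plk5, a polo-like kinase of neural tissue, was at 9.37 to 11.3 CPM in WT and 78.5, 21.0 and 18 CPM in KO. Its difference of 1.95 was 0.95 without KO 1. Elmod3 (0.60) and the tRNA pseudouridine synthase Pus3 (0.51) were tighter, with 21.0 to 23.3 CPM of Elmod3 in KO and 13.5 to 15.4 CPM in WT. The adjusted p of these 7 genes was 0.302. The last of the 10 was Mpc1-ps, a pseudogene of the mitochondrial pyruvate carrier Mpc1, which had no count in any WT library and 43, 49 and 25 counts in KO 1, 3 and 5. Against a floor of 3 counts per WT library it was at least 12.6-fold higher in KO. Reads of such a copy can be shared with the parent gene, so its level is uncertain.

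Genes lower in KO began with Tmem116, a membrane protein gene, at 2.40, 1.57 and 1.52 CPM in WT and 0.625, 0.786 and 0.711 CPM in KO (-1.36, SE 0.28, adjusted p = 0.302). Fam83h, whose protein binds casein kinase and keratin, was at 5.93 to 6.72 CPM in WT and 2.56, 2.86 and 3.55 CPM in KO. Others act on chromosomes. Mcm4, a subunit of the replicative helicase, stood at 19.8, 19.6 and 17.6 CPM in WT and 10.1, 14.9 and 12.2 CPM in KO (-0.62, SE 0.13, adjusted p = 0.302). Itgb3bp, which encodes the centromere protein CENP-R, was at 7.29 to 9.02 CPM in WT and 4.6 to 5.50 CPM in KO. Has3, a hyaluronan synthase, Fxyd3, a modulator of the sodium pump, Cfap126, a basal body protein, and the unnamed Gm16254 were below 7 CPM in all 6 libraries. Mid1-ps1 was at 0.266, 4.6 and 4.04 CPM in WT and at 0 to 0.17 CPM in KO. It is annotated on chromosome Y, yet was higher in the WT libraries without Y-linked transcripts than in WT 2. It is a copy of Mid1 that can share its reads.

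**Figure D2:**
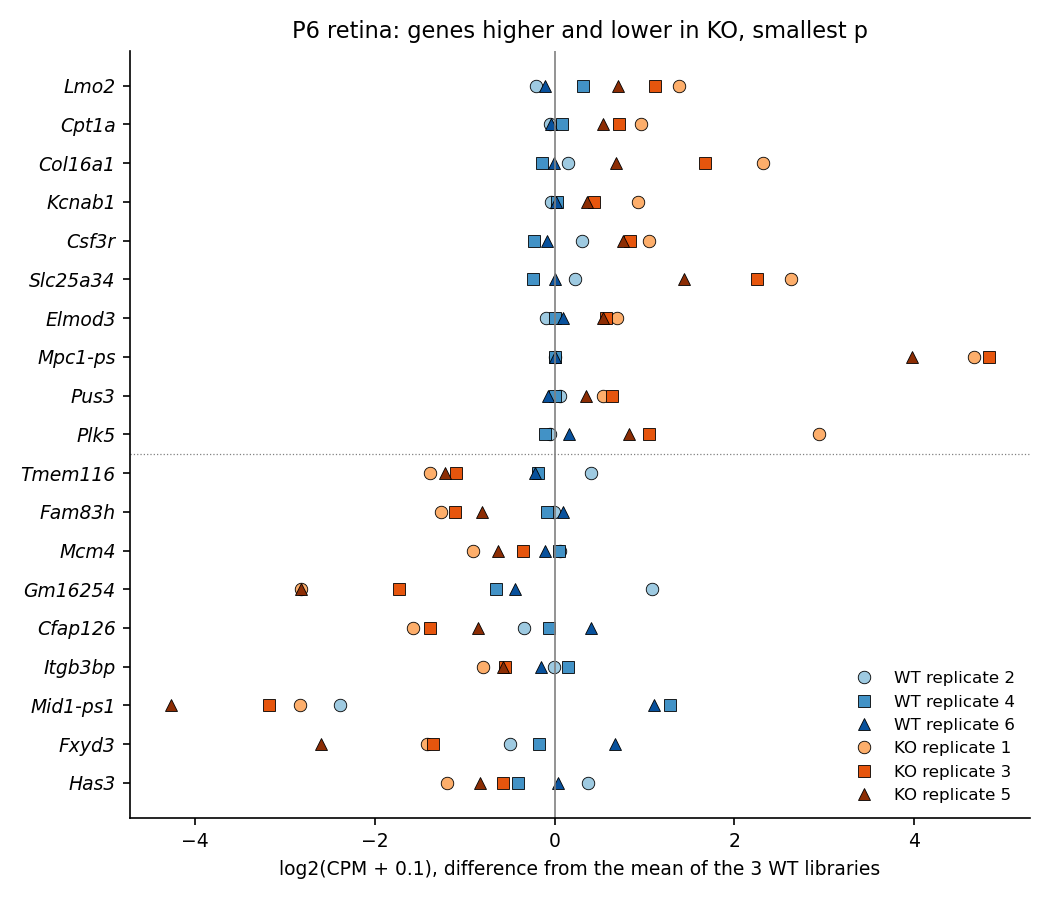
Genes higher and lower in KO at P6 with the smallest p among genes whose groups do not overlap. The x axis is log2(CPM + 0.1) minus the WT mean and each point is 1 library. KO 1 is the farthest point of the KO group in most rows, as for Plk5 at 78.5 CPM.

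Cell division genes were lower, and most of all in KO 1. Of 70 genes of G2 and mitosis, 22 were lower in KO at p under 0.1 (31.4% against the background of 6.55%), 0 were higher, and the median difference was -0.53. By limma-voom 48 were lower, with a median of -0.65, and in the 6 P6 libraries alone 15 were lower. The list mean in each library, relative to the WT mean on the log2 scale, was -0.01, 0.26 and -0.25 in WT and -1.59, -0.01 and -0.43 in KO. KO 1 lay below all WT libraries in 66 of the 70 genes, KO 5 in 41 and KO 3 in 13. Thus KO 1 carried most of the difference and KO 3 was within the WT range. Leaving out KO 1 gave a median of -0.20 and 8 genes at the threshold. It was -0.92 with 53 genes without KO 3, and -0.36 with 9 genes without WT 4. The whole list was fixed with earlier results of these data known, and its direction is no independent evidence.

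Of the mitotic genes with the smallest p, Mad2l1, a component of the spindle checkpoint, stood at 21.3, 23.2 and 17.4 CPM in WT and 14.3, 16.2 and 16.0 CPM in KO (-0.41, SE 0.12, adjusted p = 0.426). Smc4, a condensin subunit that compacts chromosomes, was at 38.8, 43.1 and 37.6 CPM in WT and 19.8, 34.3 and 30.8 CPM in KO. Nusap1, a spindle microtubule protein, was at 14.4, 16.1 and 11.5 CPM in WT and 2.73, 10.3 and 8.35 CPM in KO. These 3 genes separated the groups. Without KO 1 the difference of Smc4 was -0.29 in place of -0.49, and that of Nusap1 was -0.58 in place of -0.97. Ckap2l, another spindle protein, differed by -1.07 and by -0.69 without KO 1. The chromokinesin Kif4 differed by -0.82, and by -0.49 without KO 1. Incenp, the scaffold of the chromosomal passenger complex, was at 22.4 to 29.4 CPM in WT and 17.9 to 22.4 CPM in KO. The best known proliferation markers, named here after their values were seen, did not separate the groups. Mki67 was at 65.1, 89.0 and 54.5 CPM in WT and 8.87, 79.7 and 49.9 CPM in KO. Top2a, the topoisomerase that untangles chromosomes, was at 51.9, 62.5 and 48.2 CPM in WT and 14.2, 55.2 and 34.2 CPM in KO. In both, KO 1 was far below and KO 3 was among the WT values.

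Promoters of the mitotic genes are shown because genes of this phase share short sequences there, the CHR element TTTGAA and the CCAAT box. RefSeq windows (GRCm38.p6) held 250 bases upstream of the start for 59 of the 70 genes. TTTGAA, read on both strands, was in 33.9% of them and in 10.8% of the 12115 promoters of all tested genes. CCAAT was in 76.3% against 35.8%. The E2F sequence TTTCCCGC was in 0% of the mitotic promoters and in 1.61% of all, while 6.98% of the 43 DNA replication promoters had it. These are matches of letters and not sites of binding. The 4 windows below belong to the mitotic genes with the smallest p that had an entry, and capitals mark any of the 3 sequences on either strand. The Ckap2l window (chr2:129297213-129297462, minus strand) holds both elements and Kif4 (chrX:100625815-100626064, plus strand) holds CCAAT. Mad2l1 (chr6:66534971-66535220, plus strand) and Nusap1 (chr2:119618048-119618297, plus strand) hold none.
Mad2l1: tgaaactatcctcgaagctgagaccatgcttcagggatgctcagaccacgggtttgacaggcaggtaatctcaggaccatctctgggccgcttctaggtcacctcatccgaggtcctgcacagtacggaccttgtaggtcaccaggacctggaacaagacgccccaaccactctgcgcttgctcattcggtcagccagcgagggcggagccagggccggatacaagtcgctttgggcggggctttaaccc
Ckap2l: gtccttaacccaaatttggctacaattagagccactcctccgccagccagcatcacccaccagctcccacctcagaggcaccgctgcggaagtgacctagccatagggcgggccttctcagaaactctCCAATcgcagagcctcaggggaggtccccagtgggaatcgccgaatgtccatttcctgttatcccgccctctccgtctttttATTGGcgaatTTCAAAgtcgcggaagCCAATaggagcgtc
Nusap1: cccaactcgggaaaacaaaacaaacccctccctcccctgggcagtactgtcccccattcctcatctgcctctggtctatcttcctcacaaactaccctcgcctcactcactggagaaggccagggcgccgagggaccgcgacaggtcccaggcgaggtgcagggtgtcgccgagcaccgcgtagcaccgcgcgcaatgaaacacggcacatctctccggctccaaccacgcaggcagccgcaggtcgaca
Kif4: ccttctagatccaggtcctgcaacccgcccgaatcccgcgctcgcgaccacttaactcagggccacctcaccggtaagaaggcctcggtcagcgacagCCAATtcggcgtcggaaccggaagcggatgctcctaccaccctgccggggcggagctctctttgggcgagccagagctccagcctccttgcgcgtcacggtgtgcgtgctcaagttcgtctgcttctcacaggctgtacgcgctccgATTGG

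Genes of DNA replication followed at a smaller size. Of 54, 14 were lower at p under 0.1 (25.9%) and 1 was higher, with a median of -0.16. The median was -0.06 without KO 1, where 6 genes were lower, and without KO 3 it was -0.28 with 22. There were 8 lower without WT 2 and 9 without WT 4. The list mean was -0.73, 0.02 and -0.26 in KO 1, 3 and 5. Besides Mcm4, members at the threshold include enzymes that make nucleotides. The ribonucleotide reductase subunit Rrm2 was at 9.29 to 13.4 CPM in WT and 2.56, 7.97 and 5.92 CPM in KO. Thymidine kinase Tk1 was at 7.08 to 9.37 CPM in WT and 4.03, 7.07 and 3.55 CPM in KO, and its difference of -0.68 was -1.05 without KO 3. The S-phase cyclin Ccna2 overlapped between the groups. The replication clamp Pcna, named after its values were seen, was at 69.6 to 81.3 CPM in WT and 61.4, 74.4 and 76.2 CPM in KO, a difference of -0.11. Cdc7, the kinase that fires origins, was the 1 member that was higher, at 16.9 to 18.5 CPM in WT and 19.7 to 26 CPM in KO (0.32, and 0.19 without KO 1).

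Progenitor markers were examined next. Of 20 genes of retinal progenitors 0 met p under 0.1 in either direction and the median was 0.02, between -0.09 and 0.07 when 1 library was left out. Without KO 3, 2 were higher and 3 lower, and without WT 6, 2 were higher. Of 14 neurogenic progenitor genes, 0 met it and the median was -0.09. The neurogenic list had a mean of -0.62 in KO 1, 0.23 in KO 3 and -0.15 in KO 5, and its median was -0.39 with 6 genes lower without KO 3 and 0.11 without KO 1.

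Photoreceptor genes divided by library in another way. Of 15 rod phototransduction genes, 4 were lower at p under 0.1 (26.7%) and 0 higher, with a median of -0.13. KO 3 was below all WT libraries in 15 of 15, whereas KO 1 and KO 5 were each below in 4. Library means were -0.74 in KO 3, 0.02 in KO 1 and -0.05 in KO 5. Without KO 3 the median was -0.00 and 0 genes met the threshold, and without WT 2 also 0 did. Without KO 1 the median was -0.23. The rod transducin subunit Gnat1 was at 67.1, 50.2 and 60.4 CPM in WT and 27.9, 18.3 and 52.2 CPM in KO. The exchanger Slc24a1, which moves calcium out of the outer segment, was at 39.4, 25.5 and 34.0 CPM in WT and 29.6, 9.43 and 24.3 CPM in KO. Its difference of -0.64 was -0.29 without KO 3.

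The recovery and cone genes gave mixed values. Rgs9bp, which anchors the GTPase-activating complex that shuts off transducin, was at 123, 110.4 and 125 CPM in WT and 84.8, 51.7 and 87.5 CPM in KO (-0.68, SE 0.19, adjusted p = 0.419). Its partner Rgs9 went the other way, at 260 to 273 CPM in WT and 420, 295 and 306 CPM in KO (0.36, and 0.19 without KO 1). Both separated the groups. The retinol dehydrogenases Rdh8 (-0.68) and Rdh12 (-0.29) were lower at p under 0.1. Without KO 3 they were at -0.38 and -0.12, and without KO 5 Rdh8 was at -1.06. Of 12 cone genes, 3 were lower and 2 higher, with a median of -0.25 that was -0.09 without KO 3 and -0.41 without KO 5, where 6 were lower. Without KO 1 only 1 was lower, and without WT 2 0 were higher. The cone transducin subunit Gnb3 was at 422 to 455 CPM in WT and 329, 325 and 403 CPM in KO. Cone arrestin Arr3 was at 40.0 to 42.1 CPM in WT and 18.9, 22.3 and 40.5 CPM in KO. KO 5 was thus within the WT range for Arr3, which differed by -0.58, by -0.97 without KO 5 and by -0.37 without KO 1. The short-wave opsin Opn1sw was higher, at 93.2 to 100 CPM in WT and 103, 118 and 134 CPM in KO. The transcription factors that specify photoreceptors overlapped between the groups. Crx was at 1272 to 1409.6 CPM in WT and 1388 to 1499.6 CPM in KO, and Nrl at 1193 to 1283 and 1209.7 to 1405 CPM. Of 16 such factors, 1 was higher and 1 lower at p under 0.1.

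**Figure D3:**
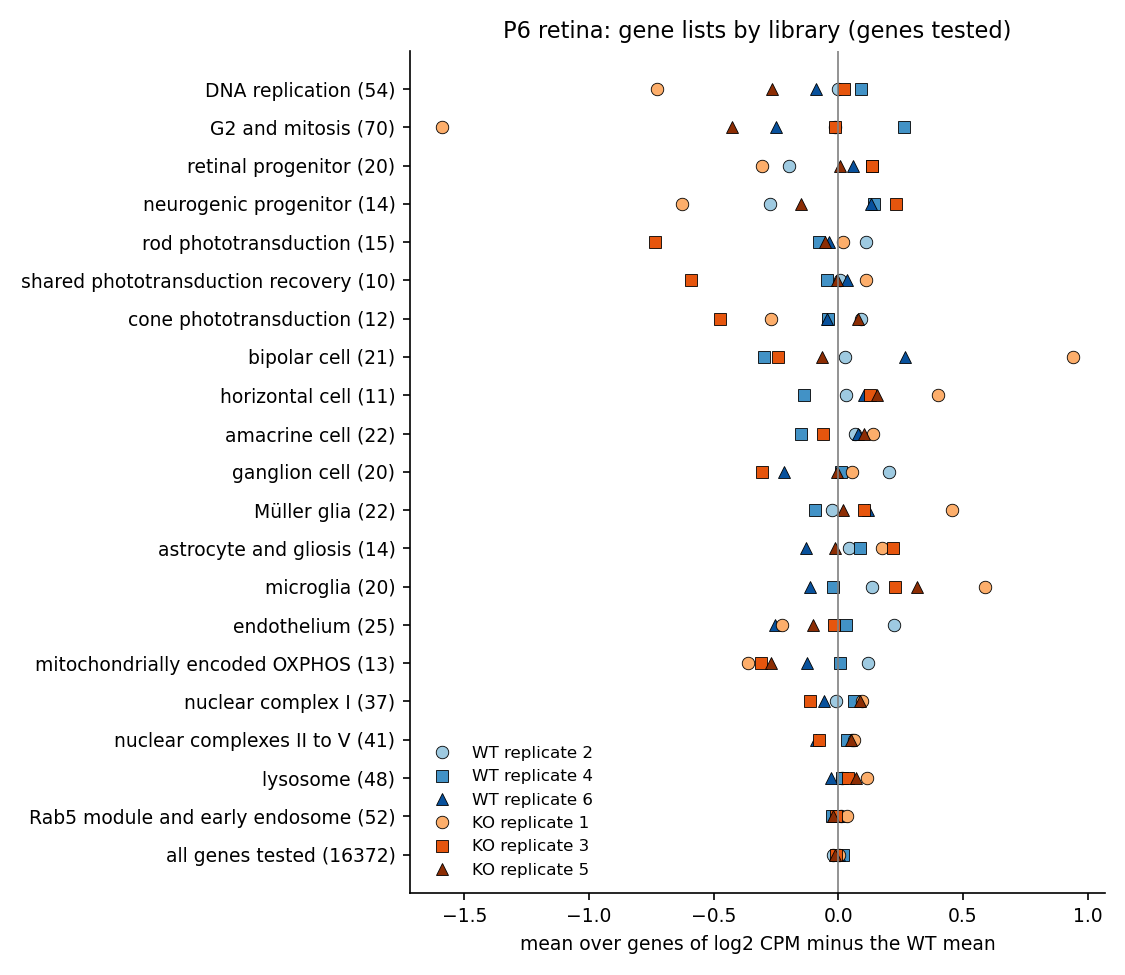
Mean over the genes of each list of log2 CPM minus the WT mean, with 1 point per library and the number of genes in parentheses. KO 1 is at -1.59 for G2 and mitosis and at 0.94 for bipolar cells, KO 3 is at -0.74 for rod phototransduction, and all 3 KO points of the microglia list lie at 0.23 or above.

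Bipolar cell markers were higher chiefly in KO 1. The 21 bipolar cell genes had a median of 0.32, and 3 were higher at p under 0.1 (14.3% against 6.41%). The list mean was 0.94 in KO 1, -0.24 in KO 3 and -0.06 in KO 5, and KO 1 exceeded all WT libraries in 18 of 21 genes. The median turned to -0.07 without KO 1, with 0 higher and 3 lower. It was 0.49 without KO 3, with 12 higher, and 0.49 without KO 5, with 10. Without WT 4 it was 0.24 with 0 higher, and without WT 6 it was 0.55 with 7. Grm6, the glutamate receptor of ON bipolar cells, was at 20.4, 17.3 and 33.4 CPM in WT and 65.5, 19.7 and 27.1 CPM in KO. Gpr179, which works beside it, was at 33.5 to 56.1 CPM in WT and 111, 47.4 and 47.1 CPM in KO. Prkca, a marker of rod bipolar cells, was at 161 to 204 CPM in WT and 146 to 236 CPM in KO.

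Horizontal cell genes were higher in more than 1 KO library. Of 11, 5 were higher at p under 0.1 (45.5% against 6.41%) and 0 lower, with a median of 0.18. Library means were 0.03, -0.14 and 0.11 in WT and 0.40, 0.13 and 0.16 in KO. The summed level of the 11 genes was 1680, 1671 and 1929 CPM in WT and 1807, 1998 and 2002 CPM in KO. In the sum KO 1 therefore did not exceed WT 6. Sept4, a septin, was at 94.1, 85.9 and 101 CPM in WT and 140.2, 111 and 118 CPM in KO (0.39, SE 0.10, adjusted p = 0.345). The homeobox genes Lhx1 and Onecut1, which specify horizontal cells, separated the groups. Lhx1 was at 3.78 to 7.45 CPM in WT and 12.4, 7.52 and 8.47 CPM in KO, and Onecut1 was at 9.89 to 12.8 CPM in WT and 19.5, 14 and 14 CPM in KO. Without KO 1 the median of the list was 0.18 and 3 members met the threshold, as they did without WT 4. Without KO 5 the median was 0.33. Amacrine cell genes (22, median 0.09) had 2 higher and 1 lower, and ganglion cell genes (20, median -0.06) had 0 higher and 1 lower. Among these Th, the enzyme of dopamine synthesis in a rare amacrine type, was at 1.52 to 2.13 CPM in WT and 0.898 to 1.42 CPM in KO.

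Müller glia genes had a median of 0.17, and 3 of 22 were higher at p under 0.1. Apoe, a lipid carrier of glia, was at 213, 190 and 208 CPM in WT and 400, 231 and 237 CPM in KO (0.51, and 0.21 without KO 1). The water channel Aqp4 and the transporter Abca8a were high in KO 1 alone, with Abca8a at 29.2 CPM there and 2.73 to 7.40 CPM in the other 5 libraries. Without KO 1 the list had 0 genes at the threshold and a median of 0.06, and it had 2 to 7 genes when another library was left out and 5 in the 6 P6 libraries alone. Rlbp1 and Vim, which all Müller cells make, overlapped. Rlbp1 was at 231 to 287 CPM in WT and 257 to 318 CPM in KO. Gfap, the filament of astrocytes and of stressed Müller glia, was at 40.5, 55.2 and 40.6 CPM in WT and 80.5, 87.7 and 60.3 CPM in KO. All KO values of Gfap were above WT (0.75, SE 0.20, adjusted p = 0.358). The acute-phase gene Lcn2 was at 0.599 to 0.756 CPM in WT and 0.954 to 1.54 CPM in KO (0.89). These were the 2 of 14 genes of the astrocyte and gliosis list at p under 0.1.

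Microglia genes were higher in all 3 KO libraries as a list. Of 20, 9 were higher at p under 0.1 (45% against 6.41%) and 0 lower, with a median of 0.33. The list mean was 0.13, -0.02 and -0.11 in WT and 0.59, 0.23 and 0.32 in KO. The summed level of the 20 genes was 294, 258 and 237 CPM in WT and 384, 290.2 and 309.9 CPM in KO, so that KO 3 did not exceed WT 2 in the sum. Leaving out 1 library at a time gave medians from 0.24 (without KO 1, 5 genes at the threshold) to 0.42 (without WT 2, 11 genes). Without WT 6 there were 6 genes at the threshold. Fcer1g, the signalling chain of Fc receptors, was at 3.46, 2.68 and 1.78 CPM in WT and 7.27, 4.10 and 5.80 CPM in KO (1.12, SE 0.33, adjusted p = 0.443). The complement gene C1qc was at 13.7, 14.8 and 14.3 CPM in WT and 29.6, 17.1 and 23.3 CPM in KO. Tmem119, a marker of resident microglia, was at 0.666, 1.11 and 1.78 CPM in WT and 2.73, 2.47 and 2.01 CPM in KO. In these genes every KO library exceeded every WT library. Other defining genes, named after their values were seen, overlapped. Cx3cr1, the fractalkine receptor, was at 18.6 to 32.3 CPM in WT and 22.7 to 25.7 CPM in KO. Csf1r was at 43.2 to 52.4 and 42.2 to 56.0 CPM, and P2ry12 at 5.09 to 9.99 and 4.56 to 5.95 CPM. Aif1 was at 2.44 to 3.31 and 3.09 to 3.67 CPM. At P14 the list median was 0.65, with 19 of 20 genes at p under 0.1 against 4.5% of all genes at that age, and at P10 it was 0.22, with 4 genes against 6.58%.

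**Figure D4:**
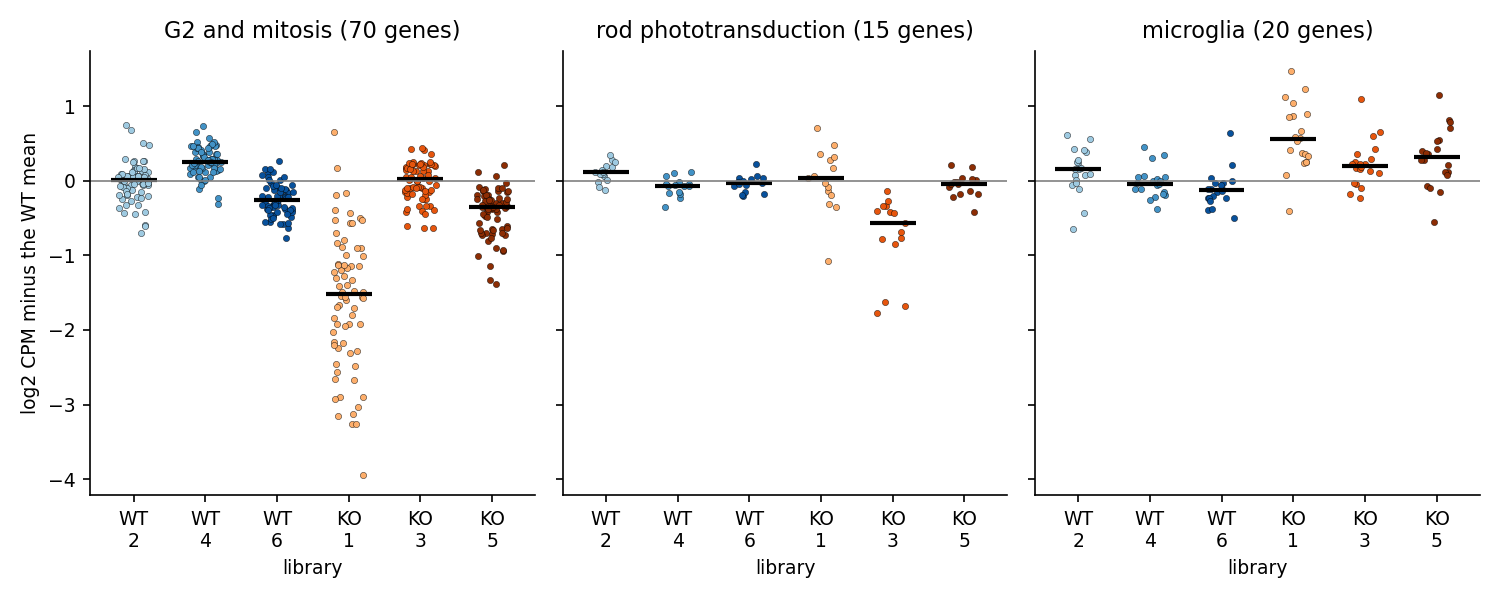
Each point is 1 gene of the list in 1 library, as log2 CPM minus the WT mean of that gene, and the bar is the median. The G2 and mitosis genes are spread downwards in KO 1, the rod phototransduction genes lie below 0 in KO 3, and the microglia genes have their medians above 0 in the 3 KO libraries.

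Vessel genes were divided. Of 25 endothelial genes, 2 were higher and 2 lower at p under 0.1, with a median of -0.07 that ran from -0.20 without WT 6 to 0.07 without WT 2. Angpt2, which loosens vessels for sprouting, was at 14.8 to 15.5 CPM in WT and 19.7, 22.4 and 18 CPM in KO (0.41, SE 0.12, adjusted p = 0.448). Apln, a ligand of endothelial tip cells, was at 9.72, 11.9 and 8.40 CPM in WT and 1.70, 6.57 and 6.46 CPM in KO (-1.03, and -0.61 without KO 1). Both separated the groups. Robo4 was lower, at 4.93 to 6.22 CPM in WT and 3.01 to 4.86 CPM in KO. Of the 12 tested genes listed for the complex of Lmo2, with Lmo2 itself included, only Lmo2 and Lmo1 met p under 0.1. Lmo1 was at 35.1 to 39.4 CPM in WT and 47.1 to 52.4 CPM in KO, while Tal1 was at 0.787 to 2.46 and 0.77 to 1.74 CPM.

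All 13 protein genes of the mitochondrial genome had lower values in KO, and 8 met p under 0.1 (61.5% against 6.55%), with a median of -0.30. Library means were 0.12, 0.01 and -0.12 in WT and -0.36, -0.31 and -0.27 in KO, so that every KO library was below every WT library. Together these genes made 6.88%, 6.29% and 5.77% of the scaled counts in WT and 4.98%, 5.46% and 5.57% in KO. Mt-Nd4l, a subunit of complex I, was at 739, 637 and 588 CPM in WT and 489, 466 and 485 CPM in KO (mt-Nd4l -0.45, SE 0.14, adjusted p = 0.473). The complex I subunit mt-Nd4 was at 4535, 4289.7 and 3854 CPM in WT and 3190.0, 3300.5 and 3481 CPM in KO. Both separated the groups, as did mt-Nd3, at 630 to 776 and 495 to 555 CPM. The cytochrome oxidase subunit mt-Co1 was closer, at 19974, 18446 and 16741 CPM in WT and 15835, 17378 and 17508 CPM in KO, with overlap. Within WT the order was WT 2, WT 4 and WT 6 for most of these genes. The count at p under 0.1 was 3 without WT 2, 4 without KO 1 or without WT 4, and 5 without KO 3, and the median was between -0.39 and -0.21 over these and the other libraries left out.

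Nuclear copies of mitochondrial genes bear on these counts. A block of pseudogenes on chromosome 1 (GRCm38 chr1:24612775-24616197) repeats part of the mitochondrial genome, and 5 of its members were counted as genes. Gm28437, Gm28661 and Gm10925 match mt-Co3, mt-Co2 and mt-Atp6 over 783, 681 and 678 bases with 0 mismatches. Gm28438 has 1 mismatch to mt-Nd3 in 345 bases and Gm29216 has 6 mismatches to mt-Co1 in 492. The beginning of mt-Co2 and of its copy is shown because nothing in it could assign a read, and a stretch of mt-Co1 (bases 1054 to 1173) with its copy (bases 1 to 120) because it holds all 6 mismatches, in capitals.
mt-Co2: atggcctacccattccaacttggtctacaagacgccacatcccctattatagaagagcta
Gm28661: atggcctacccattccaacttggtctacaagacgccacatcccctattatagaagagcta
mt-Co1: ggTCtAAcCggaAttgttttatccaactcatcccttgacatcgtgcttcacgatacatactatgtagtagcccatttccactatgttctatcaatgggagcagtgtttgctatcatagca
Gm29216: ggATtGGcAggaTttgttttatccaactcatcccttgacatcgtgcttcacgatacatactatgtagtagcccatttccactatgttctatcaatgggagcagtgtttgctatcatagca
The split between such pairs differed by library. Gm28437 was at 3.46, 10.3 and 4.25 CPM in WT and 468, 107 and 271 CPM in KO, which is a large difference in the copy beside a small one in its original. Gm28661 was at 1611 CPM in KO 1 and 36.0 to 138 CPM in the other 5 libraries. Its difference of 2.80 was -0.35 without KO 1. When each copy was added to its original, a choice made after the data were seen, 13 of 13 genes were still lower in mean, with a median of -0.23 and 6 at p under 0.1. The sum for mt-Atp6 was 6211, 5854 and 5338 CPM in WT and 4798, 4985 and 4915 CPM in KO. With the copies, the 13 genes made 6.02% to 7.21% of the counts in WT and 5.52% to 5.92% in KO.

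**Figure D5:**
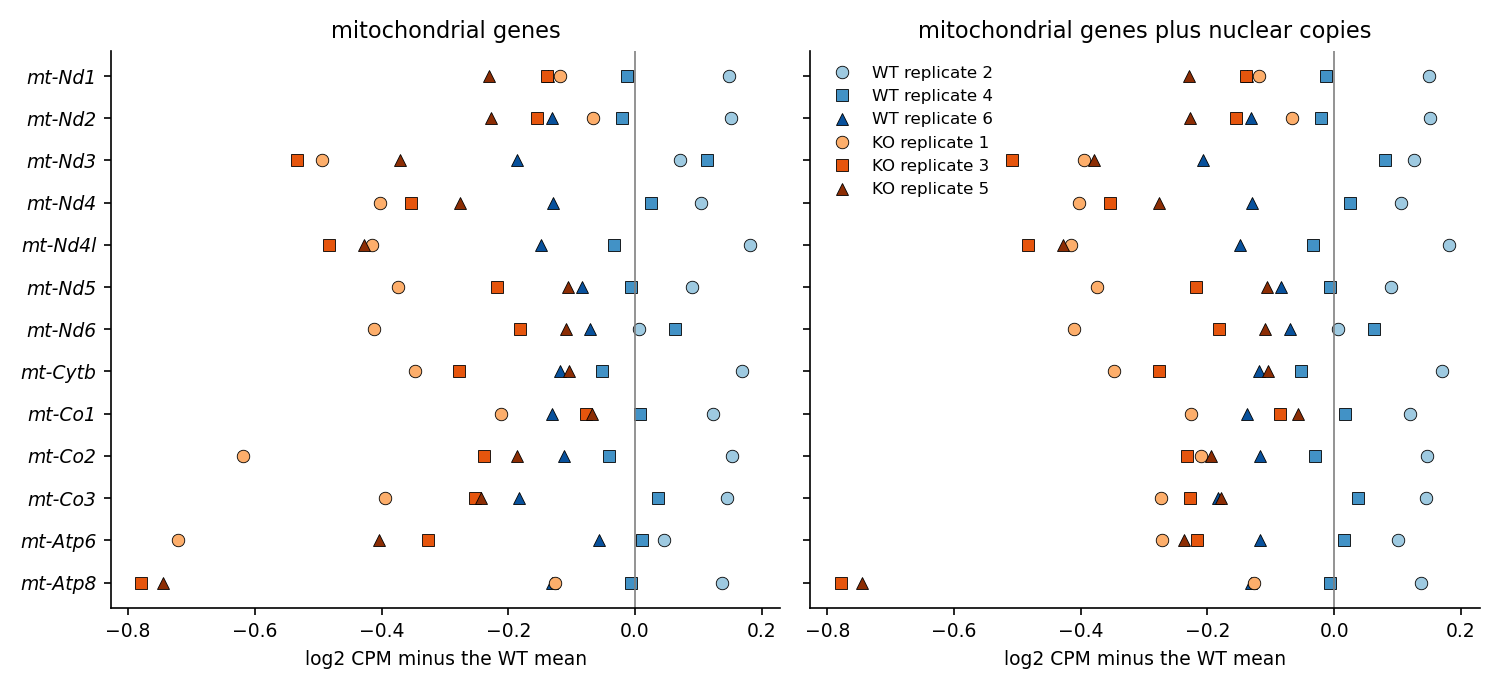
The 13 protein genes of the mitochondrial genome, as log2 CPM minus the WT mean, with 1 point per library. The left panel shows the genes as counted and the right panel the sums with the nuclear copies. The low KO 1 points of mt-Co2 and mt-Atp6 on the left move to the other KO points on the right.

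Respiratory genes encoded in the nucleus did not go with those of the mitochondrial genome. Of 37 complex I genes 2 were higher and 0 lower at p under 0.1, with a median of 0.02, and of 41 genes of complexes II to V 0 were higher and 2 lower, with a median of 0.02. Fatty acid oxidation genes were as often higher as lower, with 3 and 4 of 44 and a median of 0.04. With 1 library left out, 2 to 7 were higher and 2 to 5 lower. Beside Cpt1a, Acadm, the medium-chain dehydrogenase, was at 41.3 to 48.7 CPM in WT and 63.9, 53.1 and 49.7 CPM in KO (0.30, and 0.19 without KO 1). Acsl1, which activates long-chain fatty acids, was lower, at 125, 123 and 124 CPM in WT and 98.5, 102 and 108 CPM in KO (-0.27, SE 0.07, adjusted p = 0.358). Cpt2, which acts after Cpt1a, was at 16.8 to 17.9 CPM in WT and 14 to 15.2 CPM in KO. Oxct1, the enzyme by which cells use ketone bodies, was at 284 to 329 CPM in WT and 236 to 275 CPM in KO. These groups did not overlap. Other targets of the receptor PPAR alpha, named after their values were seen, overlapped, with Angptl4 at 4.25 to 5.73 and 4.43 to 5.80 CPM and Pdk4 at 0.367 to 1.60 and 0.948 to 1.52 CPM.

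The Rab5 module, in which RabGEF1 acts, was close to background. Of 52 genes of the module and of early endosomes, 3 were higher (5.77%) and 2 lower (3.85%) at p under 0.1, with a median of 0.01, and no library mean was further than 0.04 from the WT mean. Rab5a was at 94.2, 99.9 and 102 CPM in WT and 114, 112 and 107 CPM in KO (0.17, SE 0.11, adjusted p = 0.826). Rab5b was at 202 to 232 and 216 to 220 CPM, and Rab5c at 148 to 160 and 139 to 170 CPM. Rabep1, which encodes Rabaptin-5, was at 103 CPM in all WT libraries and at 117, 117 and 103 CPM in KO. The tether Eea1 was at 46.5 to 52.6 CPM in WT and 41.5 to 49.9 CPM in KO. Of the members at p under 0.1, Vps11, a core subunit of the tethering complexes CORVET and HOPS, was at 77.8 to 84.1 CPM in WT and 89.8 to 105 CPM in KO (0.23, SE 0.08, adjusted p = 0.575). Tgfbrap1, the CORVET subunit that binds Rab5, was at 69.0 to 69.4 CPM in WT and 76.7 to 81.7 CPM in KO. Pik3c3, the lipid kinase that Rab5 recruits, was at 38.7 to 44.3 and 43.0 to 47.4 CPM, with overlap. A pair of recycling GTPases was lower, with Rab11a at 101 to 105 and 83.3 to 93.3 CPM and Rab4b at 29.4 to 33.7 and 25.6 to 26.6 CPM. These values separated the groups except for Pik3c3.

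Autophagy and lysosome genes had small differences. Of 40 autophagy genes 4 were higher and 2 lower at p under 0.1, with a median of 0.04, and with 1 library left out 2 to 6 were higher and 0 to 3 lower. Atg3, which joins LC3 to lipid, was at 45.9, 50.9 and 49.4 CPM in WT and 61.1, 61.6 and 54.4 CPM in KO (0.28, SE 0.09, adjusted p = 0.486). Atg16l2 was at 7.86 to 8.90 and 10.5 to 13.2 CPM. Atg12 was lower, at 83.1 to 85.2 and 66.5 to 80.5 CPM (-0.18, and -0.11 without KO 1). The autophagosome markers Map1lc3b and Sqstm1 overlapped, at 257 to 287 and 279 to 292 CPM and at 247 to 264 and 242 to 263 CPM. Of 48 lysosomal genes 7 were higher (14.6% against 6.41%) and 1 lower, with a median of 0.09, and 3 were higher without KO 1 and 3 without WT 6. Asah1, an acid ceramidase, was at 35.9 to 41.6 CPM in WT and 43.5 to 51.3 CPM in KO. Ctss is counted in the microglia list too. The sulfatase Arsg was lower, at 13.1, 10.6 and 11.1 CPM in WT and 7.27, 7.80 and 8.41 CPM in KO (-0.57, SE 0.15, adjusted p = 0.358).

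Of 68 chromatin genes, 10 were higher at p under 0.1 (14.7% against 6.41%) and 0 lower, with a median of 0.09 and 20 genes of lower value in KO. Library means overlapped, at -0.09, -0.01 and 0.10 in WT and 0.04, 0.12 and 0.07 in KO. Without WT 2 there were 5, and without WT 6 there were 18, and the median ran from 0.05 without KO 3 to 0.14 without WT 6. Of all genes, 10.3% met the threshold in either direction without WT 2 and 13.3% without WT 6. Ehmt2, a histone H3 methyltransferase, was at 95.0 to 114 and 126 to 150 CPM, and the acetyltransferase Kat2a at 33.3 to 34.4 and 37.4 to 43.1 CPM. Both separated the groups.

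Glucocorticoid target and clock genes had their highest list means in KO 1. Of 21 glucocorticoid targets, 5 were higher and 1 lower at p under 0.1, with a median of 0.24 that was -0.02 without KO 1, where 2 were higher. Without WT 4, by limma-voom and with the Y-linked covariate, 3 were higher. The list mean was 0.47 in KO 1, -0.10 in KO 3 and 0.07 in KO 5. Nfkbia, the inhibitor of NF-kappa B, was at 25.8, 26.2 and 22.9 CPM in WT and 43.6, 35.3 and 32.6 CPM in KO and separated the groups (0.57, SE 0.15, adjusted p = 0.358). The kinase Sgk1 was at 15.8 to 21.6 CPM in WT and 33.7, 23.7 and 21.0 CPM in KO (0.50, and 0.28 without KO 1). Tsc22d3, a classic target of the same hormone, was lower, at 38.9 to 42.2 and 32.5 to 38.2 CPM. Of 23 immediate early genes, 4 were higher (1 without KO 1), with Ccn1 at 3.46 to 4.25 CPM in WT and 5.80 to 6.71 CPM in KO. Clock genes had 4 of 19 higher, and 1 without KO 1. Per1 among them was at 85.6 CPM in KO 1 and 38.7 to 49.3 CPM in the other 5 libraries, and its difference of 0.44 was 0.05 without KO 1. A pair of amino acid transporters was also named after their values were seen, and a tie to these lists was not tested. Slc38a2, which carries neutral amino acids, was at 136, 135 and 164 CPM in WT and 308, 267 and 177 CPM in KO (0.79, SE 0.17, adjusted p = 0.302). The taurine transporter Slc6a6 was at 248, 222 and 240 CPM in WT and 584, 402 and 299 CPM in KO (0.86, SE 0.21, adjusted p = 0.345).

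The remaining lists were read at the same threshold. FOXO targets had 3 of 19 higher (0 without KO 1) and 0 lower, and the cholesterol list 1 of 25 higher and 3 lower. The glycolysis and hypoxia list had 1 of 30 higher and 3 lower, the amino acid and ER stress list 2 of 28 higher and 4 lower, and the oxidative stress list 1 of 29 higher. Outer segment and cilium genes had 3 of 46 higher and 2 lower. Cyclin-dependent kinase inhibitors had 0 of 15 higher and 1 lower. Pericyte genes had 1 of 13 higher, pigment epithelium 1 of 19 higher and 1 lower, ciliary margin 1 of 15 higher and 1 lower, fibroblast 1 of 14 higher, and lens and erythroid lists 0 of 22 and 0 of 10.

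Whether the P6 differences were particular to that age was tested as a difference of differences. No gene differed between P6 and P10 or between P6 and P14 at an adjusted p under 0.05 by edgeR (0 of 16372, or 0%, for each), and 621 (3.79%) and 378 (2.31%) genes did at an unadjusted p under 0.05. DESeq2 called 7 and 3 genes, and limma-voom 0 and 0. The smallest adjusted p was 0.335 against P10. The genes of smallest p against P10 include Tmem116, which differed by -1.36 at P6 and 0.29 at P10, and the sigma-2 receptor gene Tmem97, which differed by -0.49 and 0.28. Capn11 and Zfp781 were at or near 0 in all WT libraries at P6, and present in 2 of the 3 KO libraries each. Against P14, Cpt1a had the smallest p, with a difference of differences of 0.73 (SE 0.17, unadjusted p = 6.52e-04, adjusted p = 1.00). The G2 and mitosis list, with its median of -0.53 at P6, had 0.01 at the second age and -0.03 at the last. That of rod phototransduction was -0.13, -0.33 and -0.15, and that of the mitochondrial genes -0.30, -0.06 and -0.12.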

How the data were processed

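RNA from whole retinas was sequenced, and per the submitters' processing notes and the study's methods the authors checked reads with FastQC, trimmed them with Trimmomatic 3.6 and quantified them with kallisto 0.44 on GRCm38 transcripts. The authors deposited estimated counts per gene and per transcript, which were not normalized. Because kallisto divides reads among matching transcripts, 39.8% of the gene values were not whole. Counts were rounded, which moved no value by more than 0.5. Near-identical copies split their reads by such estimates. A deposited CPM table and columns of fold changes and p-values were not used.

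All 17 libraries entered 1 fit in edgeR 4.0.16 (R 4.3.3), with TMM scaling, the filterByExpr filter, 1 mean per age and label, quasi-likelihood tests and Benjamini-Hochberg adjustment. The same fit gave the differences between ages. No source ties a library to its own animal or litter, so p-values measure the spread between these libraries. Totals at P6 were 15488527 to 19389809 counts. Transcripts were compared on log2(CPM + 0.5) by two-sided exact permutation. Scripts were tested on simulated data. There, DESeq2 called 22 genes that had been given no difference, edgeR called 5 and limma-voom called 7. Coordinates came from the GENCODE M21 annotation of GRCm38, and 31828 genes had a symbol. Promoters came from RefSeq.

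The comparison and the 43 gene lists (1094 of 1105 entries found) were chosen with earlier results of these data known. Named are Rabgef1, the 10 genes in each direction with the smallest p and no overlap, up to 6 list members per direction at p under 0.1, and up to 5 genes per difference between ages. Others are said to be chosen after their values were seen, or stand for a role. Alternatives were DESeq2 1.42.0 size factors and Wald tests, limma-voom (limma 3.58.1), other filters, the P6 libraries alone, a Y-linked covariate, summed transcript counts and leaving out each P6 library. A few genes that the naming rule gives are not reported here.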

Additional observations from a re-analysis of the deposited data

How the results depend on the processing

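No paired analysis was made, because no source gives the litter of a P6 library. The P6 KO libraries carry the replicate numbers 1, 3 and 5 and the WT libraries 2, 4 and 6, which does not settle how they would pair. The count of genes at an adjusted p under 0.05 was 0 with all libraries in edgeR, 2 with no filter on low counts, 51 with DESeq2 (41 higher in KO), 7 in the 6 P6 libraries alone (6 higher) and 0 to 8 with 1 library left out. The 8 came without KO 5 and the 1 gene without WT 4 was Lmo2. It was 0 with DESeq2 size factors, limma-voom, at least 10 counts in every P6 library, the Y-linked covariate, where the smallest adjusted p was 0.196, and summed transcript counts. The cause of these differences was not tested. At an unadjusted p under 0.1 the count ran from 1519 without KO 1 to 2680 with no filter, within 1.5 times of 2122. With no filter 22017 genes were tested, and 2680 was 12.2% of them. As a share of the genes tested, the count ran from 9.30% without KO 1 to 15.8% without KO 5. Of the genes at this threshold, 47.1% to 54.4% were higher. Against P10, DESeq2 called 7 genes and 0 to 1 were called with 1 library left out (1 each without KO 3 and without KO 5 of P6). Against P14, DESeq2 called 3 and the other settings 0. Without KO 1, 3 named genes changed sign, Gm28661 to -0.35, Grm6 to -0.015 and Lrtm1 to -0.22. They kept their sign without any other single library, where they reached up to 3.378, 0.99 and 1.43. At totals of 15488527 to 19389809 counts, genes with levels under 1 CPM rest on fewer than 20 counts a library.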

Other observations

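Genes close to Rabgef1 on chromosome 5 were read apart, since a targeted allele is passed on with its flanking sequence. Within 5 Mb on either side, 10 of 66 tested genes met an unadjusted p under 0.1 at P6 (15.2%), within 10 Mb 40 of 268 (14.9%) and within 20 Mb 69 of 478 (14.4%), beside 13% of all genes. In the window of 5 Mb, 6 were higher in KO and 4 lower. The same window held 4.55% at P10, beside 6.58% of all genes at that age. At P14 it held 16.7%, beside 4.5% of all genes. Tmem116, the gene of smallest p among those lower in KO, is on chromosome 5 too, at chr5:121451893-121524183.

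A few further genes, chosen after their values were seen, separated the libraries labelled KO from WT at P6. Fcgr3, an Fc receptor of myeloid cells, was at 4.06, 6.86 and 5.30 CPM in WT and 12.6, 10.6 and 8.53 CPM in KO (0.97, SE 0.23, adjusted p = 0.345). Serpine3, a serpin, was at 8.92, 5.24 and 4.72 CPM in WT and 1.08, 0.842 and 2.19 CPM in KO (-2.19, SE 0.53, adjusted p = 0.345). Upk3b, known from mesothelium and urothelium, was at 3.84 to 4.79 CPM in WT and 0.224 to 1.70 CPM in KO. Pdzph1, a PDZ domain gene, was at 2.33, 1.75 and 1.52 CPM in WT and 4.55, 3.76 and 3.55 CPM in KO at P6 (1.10), whereas its difference was -0.53 at P10 and -0.47 at P14.

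Several predicted genes that resemble other loci stood apart in the same way and are uncertain, because such copies share reads. Gm10163 was at 72.3, 64.4 and 54.4 CPM in WT and 248, 225 and 260.1 CPM in KO. Gm21596 was at 0.4, 0.524 and 0.787 CPM in WT and 6.71, 9.71 and 10.6 CPM in KO. Gm10240 and Gm13370 had the same values, 0.0666, 0 and 0 CPM in WT and 13.9, 27.3 and 5.15 CPM in KO, so they count once. The long RNA Snhg11 was at 614 CPM in KO 1 and 244 to 263 CPM in the other 5 libraries.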
